A study of Mus musculus with 6 samples.

Results

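The genes described are 5 Wnt ligands (Wnt4, Wnt5a, Wnt6, Wnt2b and Wnt9a), 3 R-spondins (Rspo1, Rspo2 and Rspo3) and 2 receptors (Fzd1 and Lgr5). They are 10 of the 18193 genes that the platform annotation gives as the single symbol of at least 1 probe set, and together they have 20 probe sets. Where a gene has several, the one brightest on average across the 6 arrays stands for it and is called its standing probe set. Of the 10 genes, 9 had a standing probe set past the filter on dim signals, and these 9 were tested; Wnt2b was not.

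Wnt proteins are secreted lipid-modified ligands that bind Frizzled receptors and LRP co-receptors and either stabilise β-catenin or act through β-catenin-independent routes. R-spondins are secreted proteins that bind LGR receptors and the ubiquitin ligases ZNRF3 and RNF43, keep Frizzled receptors at the cell surface and so raise the cell's response to Wnt. In the ovary, Wnt4 and Rspo1 are known for their part in female gonad development, and Wnt ligands also act in follicle growth, in granulosa cells and in the corpus luteum.

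Whole ovaries of female mice on the 129T2 svEmsJ background were compared at 8 months of age, with 3 arrays in each group. FORKO mice lacked the receptor for follicle-stimulating hormone, all its variants having been deleted, and wild-type (WT) mice came from the same kind of heterozygote breeding. Both ovaries were pooled for RNA, and the labels call the samples biological replicates without saying how many mice gave each, so a p-value here reflects the variation among these 6 samples alone. The titles and the genotype field give the groups, while the free-text description of the FORKO samples speaks of wild-type mice.

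Signals are MAS5 intensities scaled so that all arrays share 1 trimmed mean, and they are given with their standard deviation (SD) over 3 arrays. Changes are differences of log2(signal + 5.73) taken as FORKO minus WT; the added constant shrinks those of dim probe sets. Passing means a limma adjusted p under 0.05 over all 22506 probe sets tested. Fshr, the deleted receptor gene, read 99.6, 59.4 and 118.8 in WT and 1.2, 11.2 and 11.7 in FORKO (limma adjusted p = 0.0102). Ovarian markers were present: 12 of 13 granulosa, 9 of 11 oocyte and 13 of 13 surface epithelium markers on the array passed the filter, though Amh, a granulosa hormone, read only 0.8 to 1.2 on all arrays. FORKO replicate 1 stood apart. Its granulosa markers had a median of -2.18 against the WT mean on the log2 scale, against 0.38 and 0.32 in FORKO replicates 2 and 3, and results are therefore also given without it.

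In FORKO ovaries transcripts of Wnt4 and Rspo2 fell to about 0.357 and 0.321 of their WT signal, and the other 7 tested members did not pass. This count of 2 of 9 stands beside 2.14% of the 11199 genes tested with 1 probe set each, 0.839% of them being called lower and 1.3% higher. Counted by probe set, 3 of the 14 past the filter were called, all lower, beside 1.65% of all probe sets (0.595% lower, 1.06% higher). The members were named with earlier results of these data known, so these counts are a description. The same 2 genes passed without FORKO replicate 1, Rspo2 alone passed without FORKO replicate 2 or 3, and 0 members passed limma without WT replicate 1, 2 or 3. With the replicate number as a block, Rspo2 and Wnt5a passed. The groups did not overlap for 5 of the 9, namely Wnt4, Wnt5a, Rspo2 and Lgr5, which were lower, and Rspo1, which was higher, beside 22.6% of all genes tested (12.0% lower). By probe set, 20.4% of all had groups that did not overlap, 10.4% lower and 9.99% higher. The median change of the 9 was -0.42, against -0.02 over all genes tested, and it was -0.03 without WT replicate 2. In a whole-ovary sample, fewer cells of a type and less RNA per cell cannot be told apart.

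**Figure D1:**
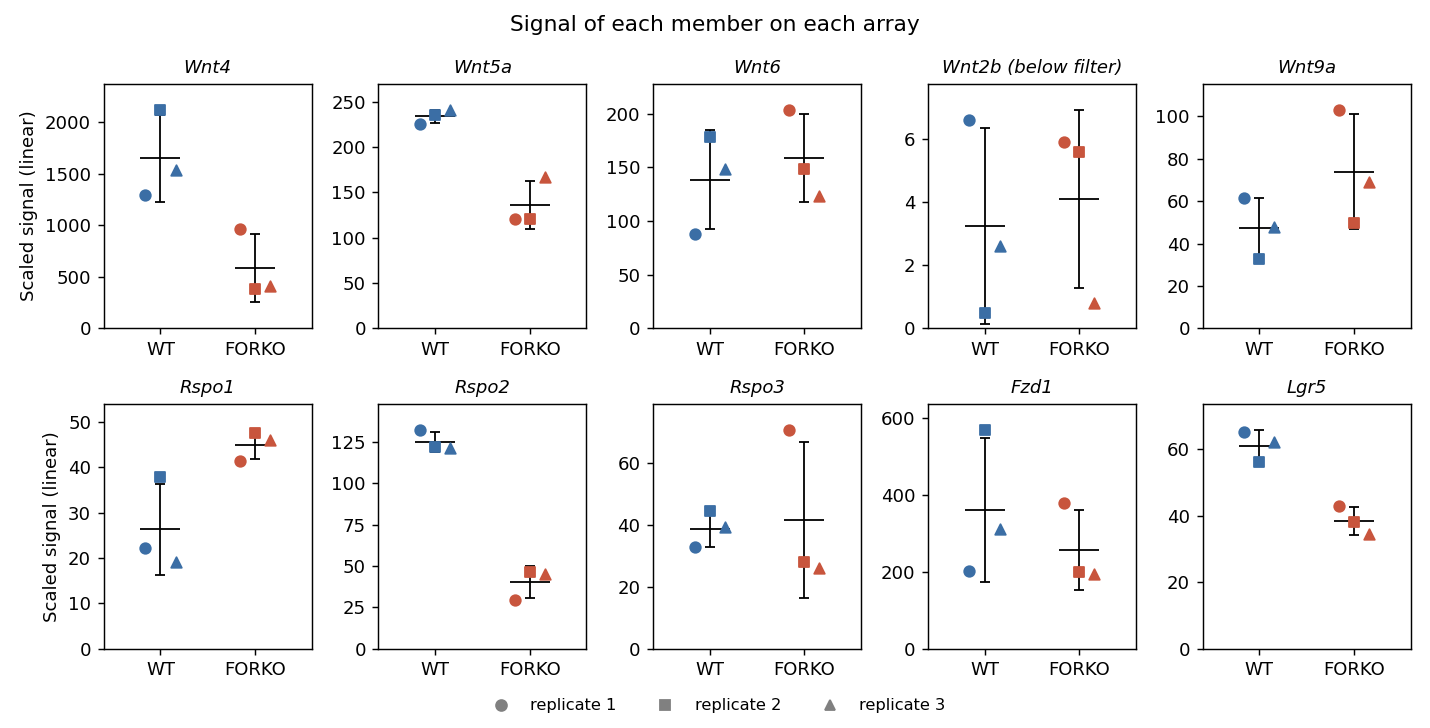
Scaled signal (linear axis from 0) of the standing probe set of each of the 10 members on each of the 3 WT and 3 FORKO arrays, with marker shape for the replicate number and horizontal bar and whiskers for mean and SD. The FORKO arrays of Wnt4 and Rspo2 all lie below the WT arrays (969.4 at most against 1296.5 at least, and 46.6 against 121.3).

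Promoter windows of 250 bases before the start were given for 6 of the 10 members (Wnt4, Wnt6, Wnt2b, Wnt9a, Rspo1 and Fzd1), from RefSeq on GRCm38.p6. For Wnt6, Wnt9a and Rspo1 the start used lies inside the gene. Their windows end at 74771891, 59306929 and 124986429, past the first base of the gene at 74754342, 59306849 and 124986401. Wnt4 and Rspo1 are printed because they are the members with a window whose groups did not overlap, in opposite directions. Capitals mark CpG dinucleotides. The Wnt4 window is chr4:137277385-137277634 and the Rspo1 window is chr4:124986180-124986429, both on the plus strand.
Wnt4: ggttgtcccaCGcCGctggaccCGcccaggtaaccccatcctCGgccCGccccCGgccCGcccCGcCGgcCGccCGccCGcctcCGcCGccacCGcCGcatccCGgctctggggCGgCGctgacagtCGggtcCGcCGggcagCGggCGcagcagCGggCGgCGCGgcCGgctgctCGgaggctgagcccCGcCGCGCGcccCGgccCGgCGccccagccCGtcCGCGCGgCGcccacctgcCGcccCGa
Rspo1: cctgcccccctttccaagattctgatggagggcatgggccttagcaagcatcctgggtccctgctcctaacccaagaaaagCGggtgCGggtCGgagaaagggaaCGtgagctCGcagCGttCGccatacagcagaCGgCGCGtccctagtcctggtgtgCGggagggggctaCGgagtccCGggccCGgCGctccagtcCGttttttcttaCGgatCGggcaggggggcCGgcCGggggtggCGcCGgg

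The Wnt4 window held 85.2% G and C and 44 CpG, and 99.9% of the 32851 windows in the table had no higher G and C content. The Rspo1 window held 66.8% and 22 CpG, against a median of 52.4% and 6 CpG over all windows. The windows of Wnt9a, Wnt2b and Wnt6 were also rich in G and C (84.4%, 80.8% and 79.6%), and that of Fzd1 was near the median (51.2%). The motifs CTTTGAA and CTTTGAT of TCF/LEF factors, the core TGACGT of the cAMP response element and the half-site core TCAAGG of NR5A receptors were searched on both strands; none of these motifs contains another. None of the 6 windows held any of them, while 4.46%, 3.21%, 6.47% and 12.5% of all windows did. This says only that these letters are not in those windows.

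Among the ligands, Wnt4, which is needed for ovarian differentiation and is made by granulosa and luteal cells, fell on both of its probe sets. On the brighter one it read 1296.5, 2121.3 and 1535.5 in WT against 969.4, 384.3 and 412.7 in FORKO, in the order of replicates 1, 2 and 3. All FORKO arrays were below all WT arrays, and FORKO replicate 1 was the highest of its group, at more than the signal of the other FORKO arrays together. The means were 1651 ± 424 and 589 ± 330 (SD, n = 3 in each), and the change was -1.58 ± 0.33 (SE; 95% interval -2.32 to -0.84; limma adjusted p = 0.0492). Reassigning the arrays in all ways gave an exact two-sided p of 0.1 (permutation test), and no smaller value is possible with groups of 3.

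This call lay close to the threshold. It was lost with the replicate number as a block (limma adjusted p = 0.0559) and without any one array other than FORKO replicate 1, at limma adjusted p values of 0.106, 0.214 and 0.146 without WT replicates 1, 2 and 3 and of 0.106 and 0.142 without FORKO replicates 2 and 3. Without FORKO replicate 1 the change was -2.01 (limma adjusted p = 1.00e-04). The size of the fall ranged from -2.01 to -1.34 over these 6 fits.

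The second Wnt4 probe set gave a separate reading of the same RNA. It read 434.7, 549.4 and 661.2 in WT and 192.2, 94.4 and 151.7 in FORKO. Again no FORKO array reached the lowest WT array, and FORKO replicate 1 was again the highest of its group. Its change was -1.9 ± 0.26 (SE; limma adjusted p = 0.0103), and it was -2.12 without FORKO replicate 1 (limma adjusted p = 2.11e-04). It passed in 4 of 6 fits with 1 array left out, the exceptions being those without WT replicate 2 (limma adjusted p = 0.0605) and WT replicate 3 (0.0587).

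Wnt5a, a ligand that acts mostly without β-catenin and is made by stromal, theca and granulosa cells, had the next lowest change. Its standing probe set read 225.7, 234.7 and 240.2 in WT and 120.1, 120.4 and 166.4 in FORKO. The WT arrays were close together (SD 7.31), and every FORKO array was below them. The change was -0.77 ± 0.18 (SE; 95% interval -1.18 to -0.37), which did not pass (limma adjusted p = 0.0741) but did with the replicate block (limma adjusted p = 0.0423). Without FORKO replicate 1 it was -0.70 (limma adjusted p = 0.0717).

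Wnt5a had 3 further probe sets past the filter, and their changes were also negative but none passed. In falling order of brightness they were -0.37, -0.63 and -0.33 (limma adjusted p = 0.544, 0.231 and 0.577), and the groups overlapped only for the brightest of these 3. On it the arrays read 207.4, 184.0 and 164.9 in WT and 200.3, 140.3 and 99.9 in FORKO, so FORKO replicate 1 lay within the WT range there although it was low on the standing probe set. The probe sets of Wnt5a thus differed in the size of the change, and the region of the transcript each one reads is not given in the sources used here.

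Wnt6 and Wnt9a had positive changes that did not pass. Wnt6, a ligand known from epithelia, read 88.3, 178.7 and 148.5 in WT and 203.6, 148.8 and 123.4 in FORKO. The groups overlapped, with the highest value in FORKO replicate 1 and the lowest in WT replicate 1. Its change was 0.21 ± 0.28 (SE; 95% interval -0.40 to 0.83; limma adjusted p = 0.795), it was 0.02 without FORKO replicate 1, and its sign turned without WT replicate 1 (-0.067). The other Wnt6 probe set, whose suffix marks probes that may bind related transcripts, changed by 0.35 (limma adjusted p = 0.723).

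Wnt9a, a ligand best known from joint and skeletal development, read 61.3, 32.5 and 47.9 in WT and 103.1, 49.5 and 69.1 in FORKO. FORKO replicate 2 lay inside the WT range. The change was 0.57 ± 0.29 (SE; 95% interval -0.09 to 1.23; limma adjusted p = 0.416), and 0.32 without FORKO replicate 1, the array with the highest signal. Its other probe set was below the filter, at 1.2 to 9.2 over all arrays.

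Wnt2b, a β-catenin-activating ligand, has 1 probe set, and it read 6.6, 0.5 and 2.6 in WT and 5.9, 5.6 and 0.8 in FORKO. These signals lie around the pseudocount of 5.73 and below the filter at 20.4, so no change is given for it. It was the dimmest standing probe set of the 10, which says nothing of its transcript level relative to other genes because probe sets differ in brightness.

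**Figure D2:**
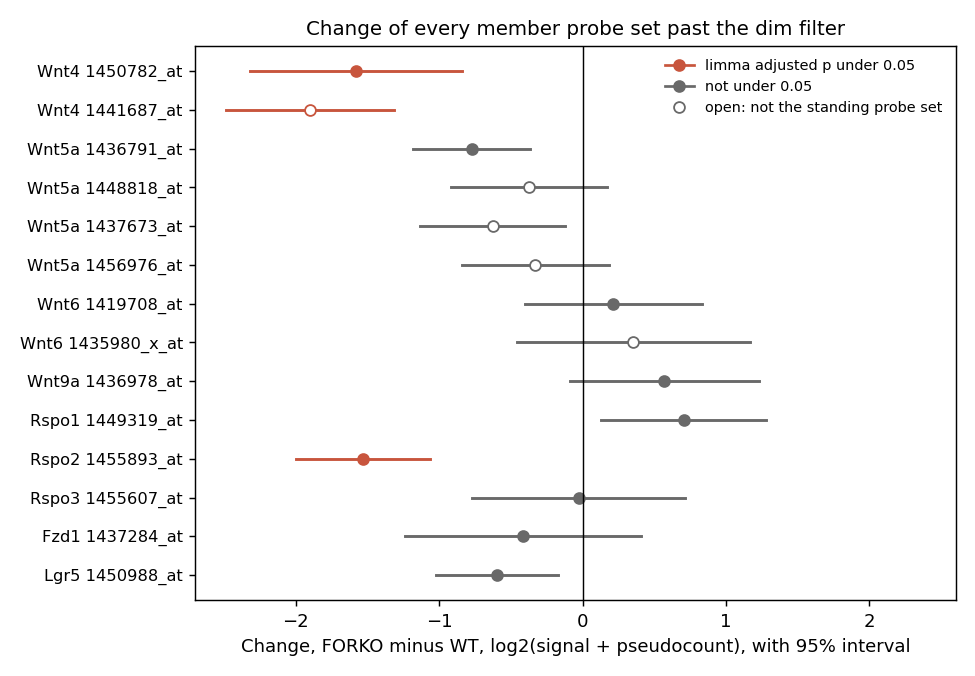
Change (FORKO minus WT, log2 scale, horizontal axis) of the 14 member probe sets past the filter with 95% intervals from limma; red marks an adjusted p under 0.05 and open circles mark probe sets that do not stand for their gene. Both Wnt4 probe sets (-1.58 and -1.9) and Rspo2 (-1.53) lie apart from the others, whose estimates run from -0.77 to 0.70.

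Of the 3 R-spondins, Rspo2 fell and the other two did not pass. Rspo2, which is made by oocytes of growing follicles in the ovary, read 132.2, 122.2 and 121.3 in WT and 29.1, 46.6 and 45.1 in FORKO. The WT arrays were nearly equal, the FORKO arrays were all far below them, and the lowest was FORKO replicate 1. The means were 125 ± 6.05 and 40.3 ± 9.71 (SD, n = 3 in each), and the change was -1.53 ± 0.21 (SE; 95% interval -2.0 to -1.07; limma adjusted p = 0.0102; exact permutation p = 0.1). Without FORKO replicate 1 the change was -1.34 (limma adjusted p = 0.00188).

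Rspo2 passed in the fits without any one FORKO array, and it missed the threshold narrowly without WT replicates 1, 2 or 3 (limma adjusted p = 0.0516, 0.0567 and 0.0548), with changes of -1.50, -1.55 and -1.55. It also passed with the replicate block (limma adjusted p = 0.0148). The other Rspo2 probe set was below the filter, with 2.0 to 7.9 in WT and 1.0 to 21.1 in FORKO, and gave no usable reading.

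Rspo1, the R-spondin known for ovarian determination and made in the surface epithelium of the mature ovary, had a change of the opposite sign that did not pass. It read 22.2, 37.8 and 19.0 in WT and 41.3, 47.5 and 46.0 in FORKO. All FORKO arrays were above all WT arrays, though WT replicate 2 came close to them. The change was 0.70 ± 0.26 (SE; 95% interval 0.13 to 1.28; limma adjusted p = 0.239), and 0.76 without FORKO replicate 1 (limma adjusted p = 0.198). Rspo1 has 1 probe set on the array, whose mean signal in WT, 26.3, was not far above the filter.

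Rspo3, an R-spondin known from endothelial and stromal cells, read 32.8, 44.5 and 39.3 in WT and 70.8, 27.9 and 26.2 in FORKO. FORKO replicate 1 was the highest of all arrays and the other FORKO arrays were the lowest. The change was -0.03 ± 0.33 (SE; 95% interval -0.77 to 0.72; limma adjusted p = 0.982), so that a change of up to about 0.7 in either direction is within its interval. Without FORKO replicate 1 it was -0.44 (limma adjusted p = 0.430), and the sign turned without WT replicate 2 (0.06), FORKO replicate 2 (0.16) or FORKO replicate 3 (0.20) and with spike scaling (0.11).

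To ask whether members of one role changed unequally, the log2 difference between genes was taken on each array and compared between groups, for 9 pairs of ligands or of R-spondins. The change of Rspo2 was lower than that of Rspo1 by 2.24 ± 0.29 (SE) and its difference from Rspo3 was -1.51 ± 0.61 (SE), with no overlap between the groups in either pair. Wnt4 differed from Wnt6 by -1.80 ± 0.29 and from Wnt9a by -2.15 ± 0.48, also with no overlap, whereas its difference from Wnt5a, -0.81 ± 0.55, came with overlapping groups. Wnt5a differed from Wnt9a by -1.34 ± 0.41, with no overlap. The exact permutation p was 0.1 for each pair without overlap, and 0.18 after adjustment over the 9 pairs. No pair can go below 0.1 with 3 arrays against 3. These differences moved without FORKO replicate 1, with no test made on the arrays left. Rspo2 minus Rspo3 was then -0.91, still with no overlap, Rspo1 minus Rspo3 went from 0.73 with overlap to 1.19 without, and Wnt4 minus Wnt5a was -1.31 and its groups no longer overlapped.

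Both receptors had negative changes that did not pass. Lgr5, an R-spondin receptor and a β-catenin target that marks stem-like cells of the ovarian surface, read 65.2, 56.0 and 62.1 in WT and 43.0, 38.0 and 34.5 in FORKO. The groups did not overlap and the spread within each was small. The change was -0.60 ± 0.19 (SE; 95% interval -1.02 to -0.17; limma adjusted p = 0.180), and -0.67 without FORKO replicate 1 (limma adjusted p = 0.127). The other Lgr5 probe set was below the filter, with 4.6 to 16.0 in WT and 1.2 to 5.5 in FORKO.

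Fzd1, a Frizzled receptor that is known to be induced in granulosa cells around ovulation, had the widest spread within WT of the 10 members on the log2 scale, with 201.5, 568.4 and 311.2 there and 377.6, 200.4 and 194.0 in FORKO. WT replicate 1 was as low as FORKO replicates 2 and 3, and FORKO replicate 1 lay inside the WT range. The change was -0.42 ± 0.37 (SE; 95% interval -1.24 to 0.40; limma adjusted p = 0.666). It was -0.72 without FORKO replicate 1 and -0.03 without WT replicate 2, the array with the highest signal.

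Wnt4 and Rspo2 differed in which FORKO array was lowest, and cell type markers were set beside them on each array. Against the WT mean on the log2 scale, Rspo2 was at -1.91, -1.32 and -1.36 in FORKO replicates 1, 2 and 3. Oocyte markers had medians of -1.14, -0.72 and -0.64 there, so Rspo2 and these markers were both lowest in FORKO replicate 1. Other lists were lowest there too. Smooth muscle markers had medians of -1.06, -0.48 and -0.50. Of these Actg2 was called lower and 5 of 6 did not pass (4 of 6 at an unadjusted limma p under 0.05). Medians were -0.70, -0.50 and -0.12 for markers of theca and steroid-making stroma, and -0.43, 0.36 and 0.29 for endothelium markers. With the replicate block Tagln, a smooth muscle marker, and Star, from the list of theca and steroid-making stroma, were called lower as well (limma adjusted p = 0.0361 and 0.0418). Of the 9 oocyte markers past the filter, Oosp1, Zp2 and Zar1 fell and 6 did not pass, among them Kit with a positive change of 1.49 (limma adjusted p = 0.0685, and 0.0329 with the replicate block). At an unadjusted limma p under 0.05 there were 7 of the 9, Kit included. Gdf9 passed too without FORKO replicate 1. The summed signal of all 11 was 1079.0 to 1280.6 in WT and 555.0 to 722.3 in FORKO. Bmp15 and Figla were below the filter, and Bmp15 read 0.7 in FORKO replicate 1 and 15.3 to 27.1 on the other arrays. The part of these cell types in the Rspo2 result was not tested.

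Wnt4 ran otherwise, at -0.73, -2.06 and -1.95 against the WT mean in FORKO replicates 1, 2 and 3. Granulosa markers had medians of -2.18, 0.38 and 0.32 there, and luteal markers -2.20, -0.20 and -0.10. The granulosa markers went both ways on the arrays where Wnt4 was lowest: 9 of the 12 past the filter lay above the WT mean in both FORKO replicates 2 and 3, and Fshr, Nr5a2 and Inha lay below it in both. The summed signal of the 13 granulosa markers was 18447.4 to 23869.0 in WT and 10287.2, 22734.0 and 23181.7 in FORKO. Of these 12 Fshr fell and 11 did not pass (5 of 12 at an unadjusted limma p under 0.05). Fshr is the gene deleted in FORKO, so its fall is no measure of granulosa cells. With the replicate block Amhr2 and Kitl were also called higher and Nr5a2 lower (limma adjusted p = 0.0346, 0.0423 and 0.0421). Leaving out FORKO replicate 1, Nr5a2 was lower (change -1.28) and Esr2 higher (1.20; limma adjusted p = 5.5e-04 and 0.0186). Of 6 luteal markers Fdx1 fell and 5 did not pass (2 of 6 at an unadjusted limma p under 0.05). Sfrp4, which encodes a secreted Wnt antagonist and is in the luteal list, read 893.9, 581.4 and 844.4 in WT and 28.9, 3521.4 and 3294.9 in FORKO. It was far below WT in FORKO replicate 1 and far above in the others, and leaving that array out it was higher by 2.16 (limma adjusted p = 4.1e-05). The part of these cells in the Wnt4 result was not tested.

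**Figure D3:**
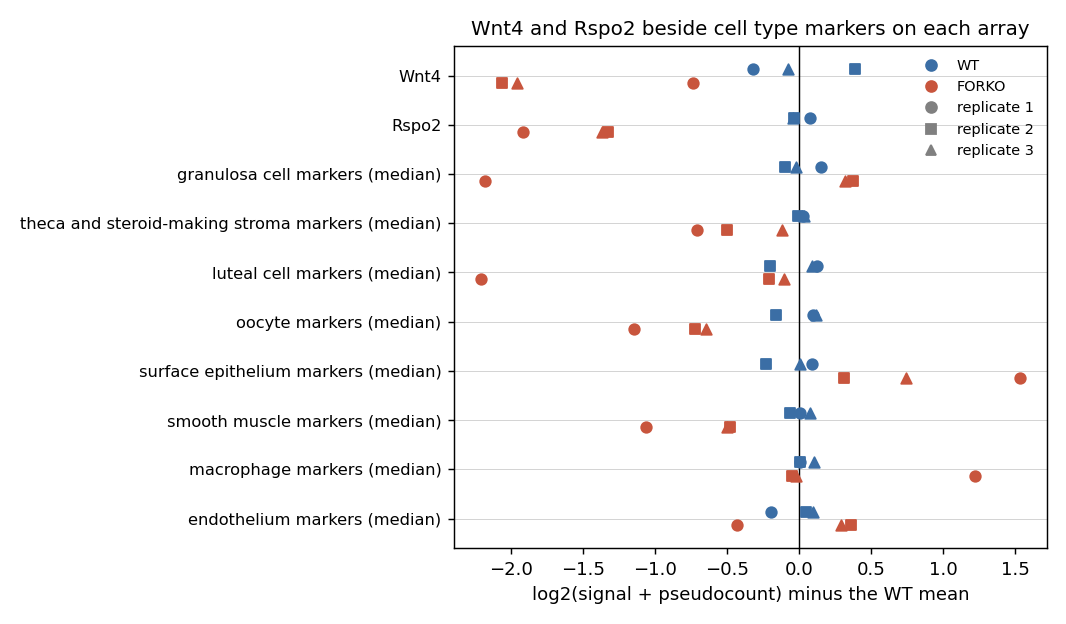
Difference from the WT mean on the log2 scale (horizontal axis) of Wnt4, of Rspo2 and of the medians of lists of cell type markers, for each WT (blue) and FORKO (red) array. The oviduct epithelium list, with 2 markers past the filter, is not shown. Its medians were 1.09, 2.48 and 2.08 in FORKO replicates 1, 2 and 3. In FORKO replicate 1 (circles) Rspo2 and the oocyte, granulosa and luteal medians are all lowest (-1.91, -1.14, -2.18 and -2.20), whereas Wnt4 is lowest in FORKO replicate 2 (-2.06). The medians of theca and steroid-making stroma, smooth muscle and endothelium are also lowest in FORKO replicate 1. The surface epithelium and macrophage medians are highest there (1.53 and 1.22).

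Rspo1 and Lgr5 are both known from the ovarian surface epithelium, and their changes had opposite signs. Of 13 surface epithelium markers past the filter, Krt8, Krt18 and Gpm6a rose and 10 did not pass, with medians of 1.53, 0.32 and 0.74 against the WT mean in FORKO replicates 1, 2 and 3. At an unadjusted limma p under 0.05 there were 10 of the 13, the 3 that rose included. Lrrn4, Muc16 and Msln had WT means of 16.9, 20.2 and 19.6, under the filter, and passed it only through FORKO. Changes were positive for 12 of the 13, among them Lrrn4, Muc16 and Msln, for which the filter favoured that sign. The summed signal was 5652.5 to 6367.6 in WT and 6093.9 to 7743.0 in FORKO, but Aldh1a1 alone made up 62.4% to 83.5% of it. Without Aldh1a1 the sum was 996.2 to 1089.5 in WT and 1648.4 to 2912.7 in FORKO, with no overlap. In FORKO replicates 1, 2 and 3 Rspo1 read 41.3, 47.5 and 46.0, and Lgr5 read 43.0, 38.0 and 34.5. The surface epithelium median was highest in FORKO replicate 1. The part of the surface epithelium in either change was not tested. Macrophage markers had medians of 1.22, -0.05 and -0.02 in the same order, and 0 of 7 past the filter passed limma (2 at an unadjusted p under 0.05). With the replicate block Cd14 was called higher (limma adjusted p = 0.0298). Of the tested members, Wnt4, Wnt6, Wnt9a, Rspo3, Fzd1 and Lgr5 had their highest FORKO signal in replicate 1, and Wnt5a, Rspo1 and Rspo2 did not. The part of these cell types in those values was not tested.

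The other genes of the pathway were taken from lists made from general knowledge. Of 71 such genes, 69 had a probe set with a single symbol and 48 passed the filter. None of the 48 passed limma's test (10 at an unadjusted p under 0.05, and 1, Gpc4, with the replicate block). Fzd5, Fzd6 and Tnfrsf19 passed without FORKO replicate 1. Their median change was -0.08, and 29 of 48 were negative. That median was 0.09 with spike scaling, which moved the median of all probe sets by 0.16, so its sign depends on the scaling.

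Of 15 other ligands and R-spondins only 3 passed the filter. Wnt10a read 36.2 ± 13.0 in WT and 16.4 ± 7.94 in FORKO (change -0.94, limma adjusted p = 0.25), and Wnt5b 29.1 ± 5.76 and 57.6 ± 41.2 (change 0.68, limma adjusted p = 0.492; n = 3 in each). The Wnt5b mean rested on FORKO replicate 1, at 104.1 against 25.5 and 43.1. The third was Wnt11 (change 0.50, limma adjusted p = 0.521), with means of 16.9 in WT and 27.6 in FORKO. Wnt11 passed the filter only through FORKO, and Wnt10a only through WT. The other 12, among them Wnt2, Wnt3 and Rspo4, were below the filter.

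Of 15 other receptors and co-receptors past the filter, 11 had a negative change (8 with spike scaling), with a median of -0.20. Ror2, a receptor for Wnt5a, read 85.3, 77.3 and 76.5 in WT and 31.6, 42.8 and 49.0 in FORKO. Its groups lay far apart for their spread, but the change of -0.88 ± 0.20 (SE) did not pass (limma adjusted p = 0.0708). Fzd6 had the largest positive change, 0.80, from 62.3, 51.9 and 66.1 to 56.9, 141.7 and 154.0. FORKO replicate 1 was within its WT range, and without that array Fzd6 was higher by 1.23 (limma adjusted p = 0.00414) and Fzd5 lower by 0.96 (log2 change -0.96, limma adjusted p = 0.0102).

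Among genes of ligand processing and release, the glypicans, which carry Wnt at the cell surface, had the largest changes. Gpc4 read 586 ± 30.2 in WT and 911 ± 92.4 in FORKO (change 0.63, limma adjusted p = 0.0703, and 0.0391 with the replicate block), and Gpc3 92.0 ± 19.7 and 67.8 ± 15.8 (n = 3 in each). In the intracellular relay, 0 of 11 passed limma (1 at an unadjusted p under 0.05), with the largest changes in Apc, a scaffold of the complex that degrades β-catenin (-0.48), and the relay protein gene Dvl1 (-0.32). Ctnnb1, which encodes β-catenin, had a change of -0.13 (limma adjusted p = 0.661), a value chosen after it was seen. Of 6 TCF/LEF factors and co-factors 0 passed limma (0 at an unadjusted p under 0.05), the largest changes being those of Tcf7l2 (0.38) and Bcl9 (0.20).

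Feedback and target genes of β-catenin had changes of both signs. None of 9 past the filter passed limma's test (2 at an unadjusted p under 0.05), and the median was -0.10, or 0.05 with spike scaling. Tnfrsf19, a TNF receptor family gene known as a β-catenin target, read 90.4, 201.5 and 112.5 in WT and 80.7, 38.1 and 36.1 in FORKO. The change was -1.30 ± 0.35 (SE; limma adjusted p = 0.108), and without FORKO replicate 1 it fell, by 1.64 (limma adjusted p = 0.00573). Myc changed by -0.91 (limma adjusted p = 0.158). Axin2, the most used reporter of β-catenin signalling, named here after its values were seen, read 107.1, 112.1 and 133.3 in WT and 149.5, 86.7 and 103.1 in FORKO (change -0.08 ± 0.22, SE; limma adjusted p = 0.911).

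**Figure D4:**
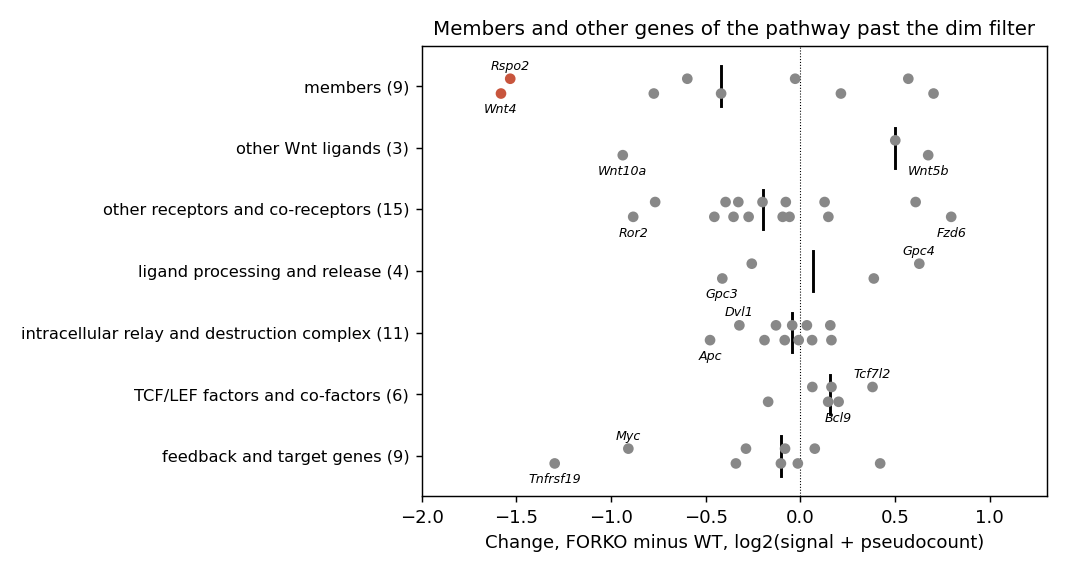
Change (FORKO minus WT, log2 scale, horizontal axis) of the 9 members past the filter and of 48 other pathway genes by role, 1 point per gene, with black bars for medians and red for an adjusted p under 0.05. Wnt4 and Rspo2 are the red points, and the lists of other genes have medians between -0.20 and 0.50. The value of 0.50 is that of 3 ligands only and is the change of Wnt11, whose WT mean of 16.9 is under the filter.

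The genes most alike to Wnt4 and to Rspo2 over the 6 arrays were found by the root mean square difference between log2 values, each gene centred on its own mean. For Wnt4 these were Tnfrsf19, at 0.21, and the potassium channel genes Kcnd2, at 0.24, and Kcnk3, at 0.26. Kcnd2 read 203.6, 204.4 and 159.6 in WT and 99.6, 43.9 and 51.9 in FORKO, with FORKO replicate 1 the highest of its group as for Wnt4. For Rspo2 they were Oosp1, which encodes an oocyte-secreted protein, at 0.09, the stem cell and germ cell factor Sall4, at 0.11, and the LIM protein gene Pdlim4, at 0.12. Oosp1 read 173.0, 147.2 and 163.4 in WT and 42.8, 55.0 and 60.7 in FORKO. Oosp1 is also in the oocyte marker list and Tnfrsf19 in the target list above. All 3 genes most like Rspo2 were lowest in FORKO replicate 1, as Rspo2 was. Choosing genes by likeness favours such a shared order, for these genes and for Kcnd2. Such likeness reflects the difference between the groups as well as that within them, and it is a description over 6 arrays with no test.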

How the data were processed

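Whole-ovary RNA from 3 WT and 3 FORKO samples was measured on Affymetrix mouse expression arrays. MAS5 made the deposited values, per the submitters' processing notes: each is the intensity of 1 probe set, not logged. The version and scaling target of that step were not stated in the labels. Deposited trimmed means ran from 80.6 to 98.4 per array, no array repeated another, and precision is limited by there being 6 arrays.

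Arrays were scaled to 1 mean after trimming 2% at each end. On the log2 scale computed from these deposited values, the pseudocount was the pooled 25th percentile, 5.73. The 64 control probe sets were left out of 45101, and probe sets with a mean signal of at least 20.4, the median of all means, entered the test, made with lmFit and eBayes (intensity trend on) of limma 3.58.1 under R 4.3.3 and adjusted by Benjamini-Hochberg. The procedure was tested on simulated data with independent normal noise. These held no array that stood apart and no pairing by replicate number, so that test does not cover either. The platform annotation gave 1 symbol for 34958 probe sets, several for 932 and none for 9211; genes were named from single symbols.

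The members and lists were chosen with earlier results of these data known. Named genes were all members, and in each pathway list the genes that passed or else the 2 largest changes, plus the 3 genes most alike to each member that passed. Arrays with one replicate number departed from their group means together (r = 0.195, 0.134 and 0.358). All exceed 0.1, which counts as pairing by the rule used, though the labels state none. The results given come from the fit without the block, as planned, because the labels tie replicate numbers to no litter, batch or day. The blocked value is given where it changes a call. Alternatives covered scaling, pseudocount, filter, variance model, probe set, block and each array left out. Pair differences without FORKO replicate 1 and marker sums without the brightest marker were added after seeing the data.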

Additional observations from a re-analysis of the deposited data

How the results depend on the processing

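Of 22506 probe sets tested 372 passed, against 567 with spike scaling, 221 with no dim filter, 691 with the replicate block and 62 to 864 with 1 array left out. The share of calls that were higher in FORKO was 64.0%, and it was 50.6% with arrays scaled to the same median and 84.0% with spike scaling. The 2 members that passed became 1, Rspo2 alone, with the same median, a pseudocount of 1, no dim filter, a stricter dim filter, no intensity trend or robust variances, and 0 to 2 with 1 array left out. With the replicate block Rspo2 and Wnt5a passed and Wnt4 did not; the block changed no other call among members. Under the 12 settings that kept all arrays Rspo2 passed each time (limma adjusted p = 0.00581 to 0.0203) and the limma adjusted p of Wnt4 ran from 0.0122 to 0.0839, while the second Wnt4 probe set passed in the 11 where it was tested on its own (0.00250 to 0.0233).

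The 5 members without overlap became 3 with a stricter dim filter, which leaves 6 members, and 5 to 7 with 1 array left out. The median change of members, -0.42, ran from -0.60 to -0.22, and from -0.67 to -0.03 with 1 array left out. The sign turned for Rspo3 with spike scaling (0.11) and without WT replicate 2 (0.06), FORKO replicate 2 (0.16) or FORKO replicate 3 (0.20), and for Wnt6 without WT replicate 1 (-0.067). With 1 array left out the change ran from -0.44 to 0.20 for Rspo3 and from -0.067 to 0.42 for Wnt6. Where a call was lost the cause was not tested. Wnt2b and the second probe sets of Wnt9a, Rspo2, Rspo3, Fzd1 and Lgr5 were too dim to test.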
